A study of Mus musculus with 6 samples.

Results

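The proteasome genes were followed in bone marrow RNA of mice with the SNORD113-114 cluster knocked out, here called cluster KO, and in that of wildtype mice. The members are 36 subunit genes, chosen by symbol, of the 47729 genes in the deposited count table, and all 36 were found there and passed the filter on low counts. They fall into 17 genes of the 19S regulatory particle, 5 genes of the immunoproteasome and its PA28 activator, and 14 genes of the constitutive 20S core. The study comprised 3 cluster KO and 3 wildtype libraries of bulk poly(A) RNA, made without strand information. The labels give the cluster KO samples as mutant and the others as wildtype, and the sources used here do not give the age, sex and strain of the mice or the way the deletion was made. The series asks which genes differ once the cluster, which holds small nucleolar RNAs of the imprinted Dlk1-Meg3 region, is lost. Small nucleolar RNAs are not read by poly(A) libraries, and the deletion itself was not checked here. The labels do not say which animal gave which library, so the p-values measure the spread between these libraries.

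The proteasome is the protease complex that degrades proteins tagged with ubiquitin. Its 20S core is a barrel of stacked rings, with alpha subunits that gate the entrance and beta subunits, some of them catalytic, inside. The 19S regulatory particle caps the core, and its ATPases unfold substrates while its non-ATPase subunits bind and remove ubiquitin. In lymphoid and other blood cells, and after interferon-gamma, the catalytic subunits Psmb8, Psmb9 and Psmb10 take the places of Psmb5, Psmb6 and Psmb7 in newly built cores, and the PA28 ring of Psme1 and Psme2 can cap the core in place of the 19S particle. Such immunoproteasomes supply many of the peptides shown on MHC class I.

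The libraries held 21424579, 23459168 and 22063846 gene counts in cluster KO and 22370022, 17663369 and 19655196 in wildtype. Levels are given as CPM, a gene's counts relative to the library total, with the totals scaled by TMM factors. Summed CPM of a 10-gene neutrophil list was 19685, 11331 and 10293 in cluster KO against 6099, 9174 and 11738 in wildtype, and that of a 10-gene erythroid list was 821, 1089 and 1118 in cluster KO against 1074, 1397 and 1421 in wildtype, so that RNA of marrow lineages was present in every library. Of all 15686 genes tested, 15.9% were called higher and 12.1% lower in cluster KO at an adjusted p under 0.05, by the quasi-likelihood test of edgeR with Benjamini-Hochberg adjustment. All 3 cluster KO libraries lay above all 3 wildtype libraries for 22.9% of the tested genes and below them for 23.1%.

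Most genes of the 19S regulatory particle were called higher in cluster KO marrow, while most 20S core genes did not pass and those that did were lower. Of the 17 regulatory particle genes 11 were called higher, 0 lower and 6 did not pass, with a median log2 fold change of 0.50 and a range of 0.19 to 1.16. Of the 14 core genes 3 were called lower, 0 higher and 11 did not pass, with a median of -0.12 and a range of -0.47 to 0.21. Of the 5 immunoproteasome and PA28 genes 1, Psmb8, was called higher and 0 lower, with a median of -0.09. The median over all tested genes was 0.00. In bulk RNA, fewer cells of a type and less RNA per cell cannot be told apart. At an unadjusted p under 0.05 there were likewise 0 core genes higher and 0 regulatory particle genes lower, and DESeq2 also called 0 of each. Among the immunoproteasome and PA28 genes 1 was lower at an unadjusted p under 0.05, and DESeq2 called 0 lower.

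**Figure D1:**
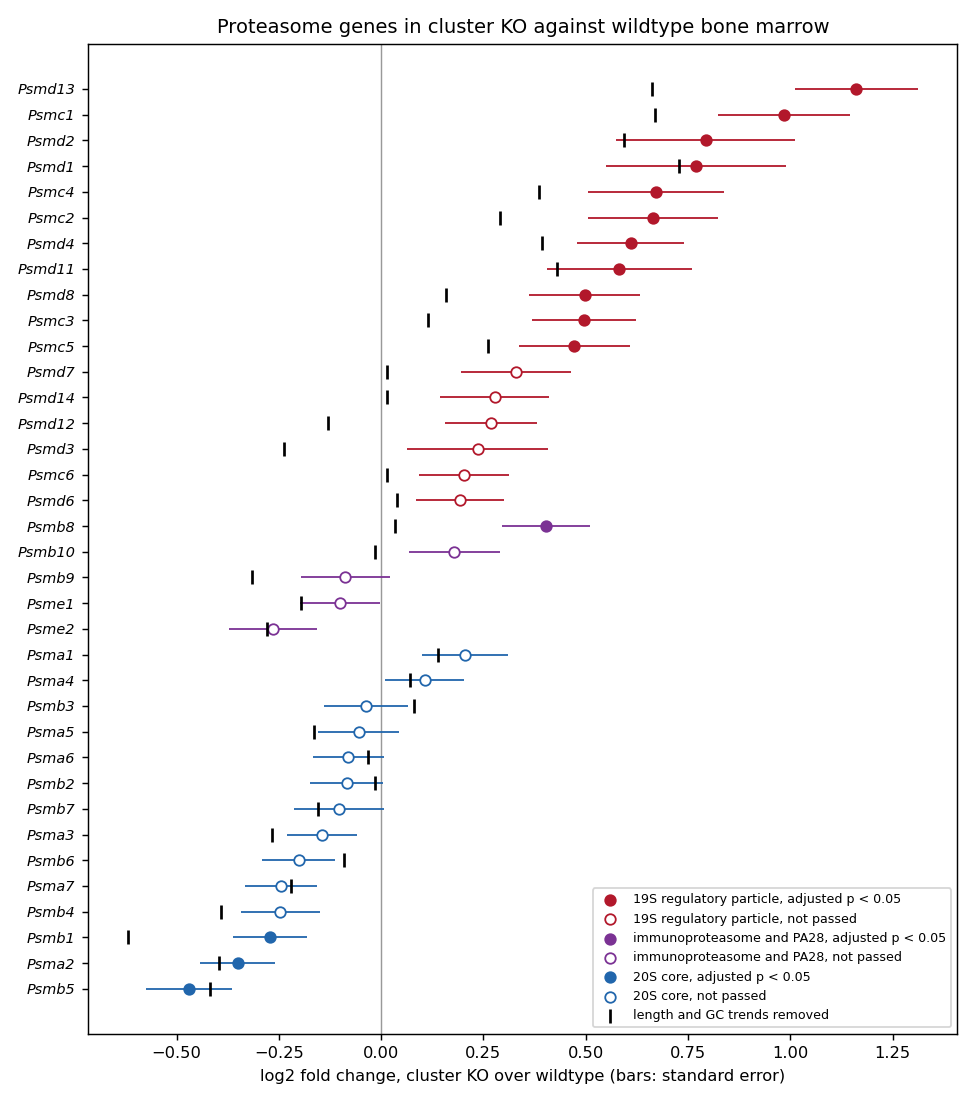
Log2 fold change of each proteasome gene, cluster KO over wildtype, with its standard error (bars), from 3 libraries of each genotype; filled points passed an adjusted p of 0.05 and black ticks give the value once trends with transcript length and GC content were removed. The 17 regulatory particle genes all lie above 0, and 12 of the 14 core genes lie below it.

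The 19S ATPases form the ring that unfolds substrates and threads them into the core, and 5 of the 6 rose. Psmc1 was at 290.5, 334 and 413 CPM in cluster KO, against 197, 186 and 142 CPM in wildtype libraries (log2 fold change 0.98, SE 0.16, adjusted p = 0.00345). Psmc2 was at 302, 364 and 424 CPM in cluster KO, against 265, 237 and 186 CPM in wildtype (0.66, SE 0.16, adjusted p = 0.0136). Psmc4 was at 315, 371 and 414.5 CPM in cluster KO, against 263, 253 and 174 CPM in wildtype (0.67, SE 0.17, adjusted p = 0.0152). In each of these genes the lowest cluster KO library lay above the highest wildtype library, cluster KO 3 was the highest and wildtype 3 the lowest. Psmc3 and Psmc5 also rose without overlap, by log2 fold changes of 0.50 (SE 0.13, adjusted p = 0.0176) and 0.47 (SE 0.14, adjusted p = 0.0276). Psmc6 was the exception, with libraries that overlapped, means of 283 ± 22.8 CPM in cluster KO and 246 ± 16.8 CPM in wildtype (SD, n = 3 each), and a difference of 0.20 on the log2 scale (SE 0.11, edgeR adjusted p = 0.192).

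Among the 11 non-ATPase genes of the particle 6 rose and 5 did not pass. Psmd13, a subunit of the lid, the part of the 19S particle that carries the deubiquitinase, had the largest change of all members. Its level was 56.3, 71.0 and 75.1 CPM in cluster KO, against 31.0, 30.8 and 28.7 CPM in wildtype (log2 fold change 1.16, SE 0.15, adjusted p = 0.00199). Psmd4, a receptor for ubiquitin chains, was at 279, 329.7 and 342.5 CPM in cluster KO, against 238, 203 and 182 CPM in wildtype (0.61, SE 0.13, adjusted p = 0.00871). The lid gene Psmd8 was at 318, 346 and 354 CPM in cluster KO, against 279.8, 245 and 197 CPM in wildtype (0.50, SE 0.13, adjusted p = 0.0217). None of these 3 genes had overlapping libraries. The scaffold subunits Psmd1 and Psmd2, the largest proteins of the base, rose with a wide spread among the cluster KO libraries. Psmd1 was at 149, 194 and 308 CPM in cluster KO, against 126, 130.2 and 126 CPM in wildtype (0.77, SE 0.22, adjusted p = 0.0271). Psmd2 was at 156, 226 and 326 CPM in cluster KO, against 141, 139 and 129 CPM in wildtype (0.79, SE 0.22, adjusted p = 0.0232). In both, most of the difference came from cluster KO 2 and 3, and cluster KO 1 lay nearest to the wildtype libraries. The lid gene Psmd11 rose as well (0.58, SE 0.18, adjusted p = 0.0341). The lid genes Psmd3, Psmd6, Psmd7 and Psmd12 and the deubiquitinase gene Psmd14 had log2 fold changes from 0.19 (Psmd6) to 0.33 (Psmd7) and adjusted p from 0.093 (Psmd7) to 0.331 (Psmd3), and only Psmd12 had libraries without overlap. In all, 12 of the 17 regulatory particle genes had every cluster KO library above every wildtype library, against 22.9% of all tested genes.

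The level of the regulatory particle genes varied from library to library, and its order within each genotype was the reverse of that of the share of reads outside genes. Their median log2 level relative to the wildtype mean was 0.25, 0.54 and 0.68 in cluster KO libraries 1, 2 and 3, which had 10.05, 8.59 and 7.29% of reads outside genes. In wildtype libraries 1, 2 and 3 it was 0.14, 0.04 and -0.18, at 10.03, 10.5 and 11.06% of reads outside genes. The medians of cluster KO 1 and wildtype 1 differed by less than those of cluster KO 1 and 2. For the core genes the medians were -0.08, -0.17 and -0.15 in cluster KO and 0.06, -0.02 and -0.04 in wildtype. Other shares separated the genotypes without overlap. Of the gene counts, rRNA genes, mitochondrial ones included, made up 0.614, 0.383 and 0.251% in cluster KO and 0.998, 1.08 and 1.44% in wildtype, and mitochondrial genes 2.17, 1.73 and 1.46% in cluster KO and 2.77, 2.72 and 3.06% in wildtype. Of all rows of the table, summary rows included, reads with multiple alignments made up 14.7, 13.9 and 13.4% in cluster KO and 16.1, 16.3 and 16.8% in wildtype. The part of RNA quality in the proteasome values was not tested. Without cluster KO 2 the test called 3 regulatory particle genes higher, without cluster KO 3 it called 7, and without wildtype 2 or wildtype 3 it called 4. Psmc1, Psmd4 and Psmd13 passed whichever library was left out, with a largest adjusted p of 0.0212, 0.0474 and 0.0178.

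**Figure D2:**
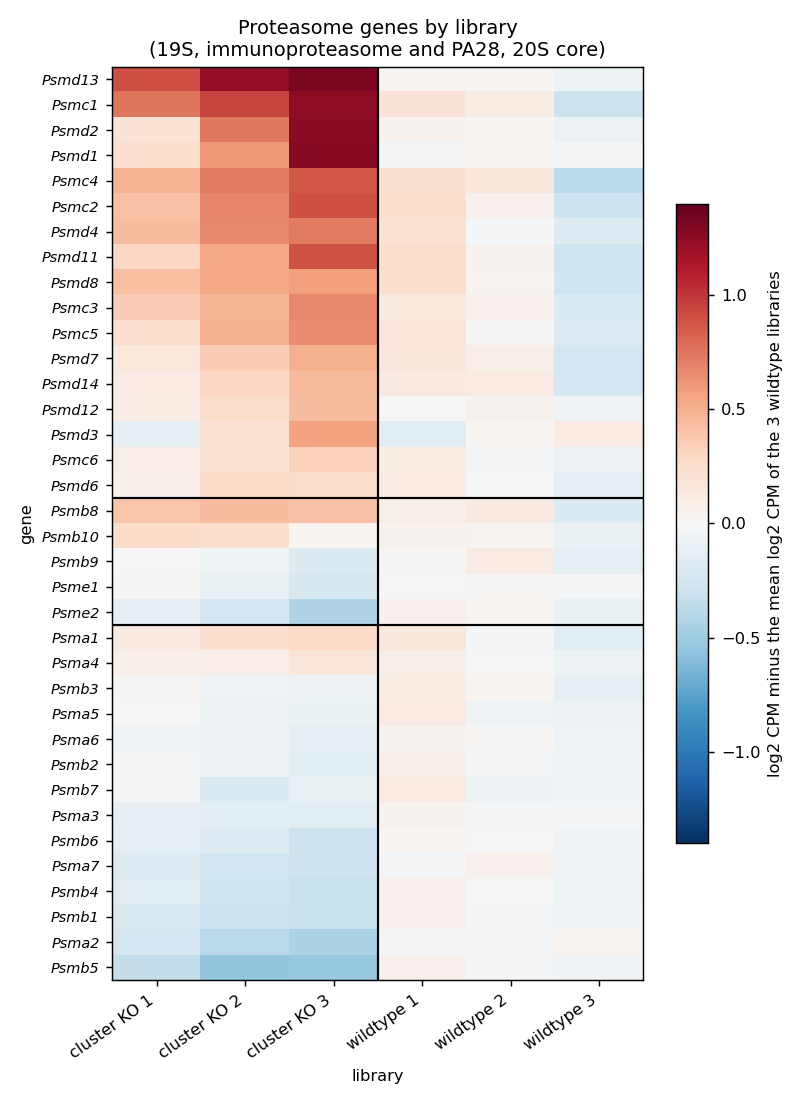
Level of each proteasome gene (rows) in each library (columns), as log2 CPM minus the mean log2 CPM of the 3 wildtype libraries; horizontal lines part the regulatory particle, the immunoproteasome with PA28, and the core. The regulatory particle rows are darkest in cluster KO 3 and palest among the cluster KO libraries in cluster KO 1, where their median is 0.25.

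Transcript length moved with these differences. Across all tested genes the median log2 fold change was -0.41 for transcripts up to 945 nucleotides, 0.14 from 946 to 1436, 0.40 from 1437 to 1854, 0.41 from 1855 to 2273, 0.23 from 2274 to 2717 and 0.10 from 2718 to 3187, and it was below 0 in each longer decile. Regulatory particle genes, with principal transcripts of 1316 to 3112 nucleotides, lay mostly where genes in general were higher, and 34.5% and 35.1% of all tested genes were called higher in the third and the fourth decile. Core genes ran from 766 to 2911 nucleotides, with 5 of the 14 in the shortest decile. In that decile 24.9% of all tested genes were called lower, as was 1 of those 5 core genes. The median of the 5 core genes was -0.20, above the -0.41 of all tested genes there. Within the decile of 946 to 1436 nucleotides the 3 regulatory particle genes Psmc5, Psmd4 and Psmd6 had a median of 0.47 and the 6 core genes a median of -0.07. In the decile of 2718 to 3187 nucleotides Psmd1, Psmd2 and Psmd11 had a median of 0.77, against -0.25 for the core genes Psma2 and Psma3. Psmb1, the only core gene from 1437 to 1854 nucleotides, had a log2 fold change of -0.27, while the 7 regulatory particle genes there ran from 0.28 to 0.98. From 1855 to 2273 nucleotides the 4 regulatory particle genes had a median of 0.25, below the 0.41 of all tested genes there.

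Once each library's trends with transcript length and GC content were removed, 4 regulatory particle genes were called higher and 6 core genes lower. The regulatory particle median was then 0.26, with 15 of the 17 genes above 0, and the core median -0.16, against -0.03 over all tested genes. In that fit 11.1% of all tested genes were called higher and 12.9% lower. The regulatory particle genes still called were Psmc1 (0.67, edgeR adjusted p = 0.00668), Psmd13 (0.66, adjusted p = 0.0053), Psmd4 (0.39, adjusted p = 0.0278) and Psmd1 (0.73, adjusted p = 0.03). Psmd3 and Psmd12 changed sign, to -0.24 and -0.13, and did not pass. The 7 others that had been called missed the threshold, with log2 fold changes from 0.11 (Psmc3) to 0.59 (Psmd2). Psmc1 and Psmd13 were the regulatory particle genes that passed under every alternative listed in the closing section. With the trends fitted on median lengths over coding transcripts, the particle median was 0.23, with 13 of the 17 genes above 0. The core median was then -0.30, with 8 of the 14 genes called lower.

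**Figure D3:**
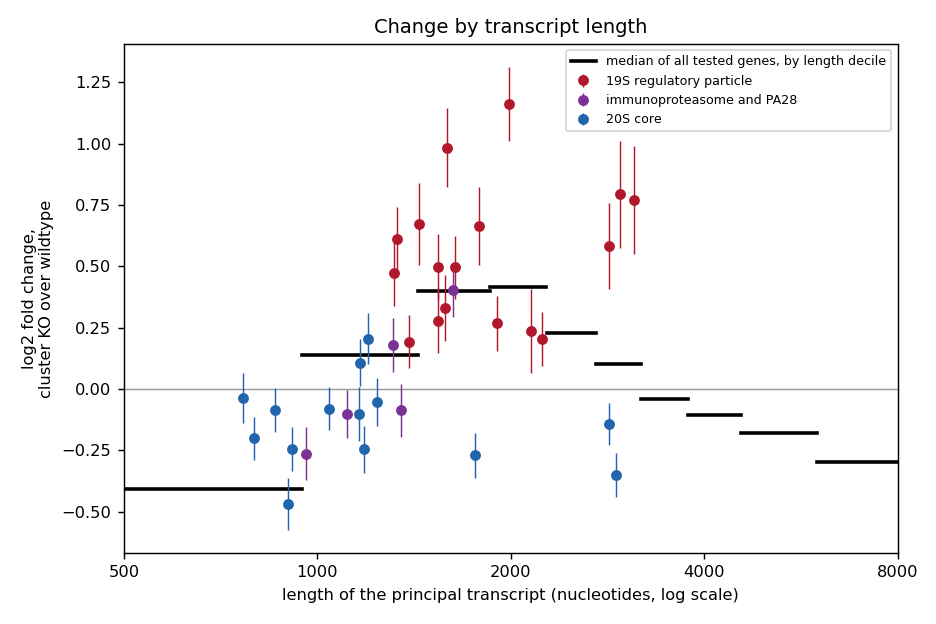
Log2 fold change, cluster KO over wildtype, of each proteasome gene with its standard error against the length of its principal transcript (log scale); black bars give the median over all tested genes in each length decile. The bars peak at 0.40 and 0.41 between 1437 and 2273 nucleotides, where many regulatory particle genes lie, and the 3 core genes longer than 1437 nucleotides lie below 0.

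Promoters are shown for the regulatory particle genes with the steadiest calls and for the core and immunoproteasome genes that changed most, so that genes that moved in opposite directions can be read side by side. The windows hold 250 bases before and 50 after the RefSeq start on GRCm38.p6, printed 5′ to 3′ on the gene's strand. They are chr7:140882144-140882443 (plus strand) for Psmd13, chr12:100109952-100110251 (plus strand) for Psmc1, chr3:95042565-95042864 (minus strand) for Psmd4, chr14:54617946-54618245 (minus strand) for Psmb5 and chr17:34197945-34198244 (plus strand) for Psmb8. Capitals mark matches on either strand to CCAAT (the CCAAT box bound by NF-Y), TGACNNNGC (the core of the antioxidant response element, bound by Nrf factors that drive proteasome genes) or GAAA, any 2 bases and GAAA (the core of the interferon response element), which do not overlap each other in these windows.
Psmd13: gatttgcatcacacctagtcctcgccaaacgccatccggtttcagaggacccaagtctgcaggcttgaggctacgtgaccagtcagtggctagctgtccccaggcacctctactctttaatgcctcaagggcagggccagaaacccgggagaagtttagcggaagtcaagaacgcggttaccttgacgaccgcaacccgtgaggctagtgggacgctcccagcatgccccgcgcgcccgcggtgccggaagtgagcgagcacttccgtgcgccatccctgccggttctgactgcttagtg
Psmc1: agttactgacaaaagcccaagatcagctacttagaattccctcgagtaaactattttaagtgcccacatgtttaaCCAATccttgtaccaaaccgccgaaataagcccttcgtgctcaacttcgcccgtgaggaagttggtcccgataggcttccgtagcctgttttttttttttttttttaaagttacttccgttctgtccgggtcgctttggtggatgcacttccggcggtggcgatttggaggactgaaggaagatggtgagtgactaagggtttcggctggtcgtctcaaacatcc
Psmd4: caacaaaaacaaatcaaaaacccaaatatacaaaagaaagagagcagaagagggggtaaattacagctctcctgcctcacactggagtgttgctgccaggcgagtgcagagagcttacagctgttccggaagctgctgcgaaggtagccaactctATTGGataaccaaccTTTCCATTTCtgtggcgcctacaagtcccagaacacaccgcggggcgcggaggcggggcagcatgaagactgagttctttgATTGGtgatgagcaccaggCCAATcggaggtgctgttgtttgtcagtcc
Psmb5: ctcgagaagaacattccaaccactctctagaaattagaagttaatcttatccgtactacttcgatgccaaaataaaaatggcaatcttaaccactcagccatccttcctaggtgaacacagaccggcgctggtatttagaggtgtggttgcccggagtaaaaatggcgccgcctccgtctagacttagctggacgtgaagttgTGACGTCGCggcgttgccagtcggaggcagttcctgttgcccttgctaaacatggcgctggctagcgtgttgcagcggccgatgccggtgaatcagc
Psmb8: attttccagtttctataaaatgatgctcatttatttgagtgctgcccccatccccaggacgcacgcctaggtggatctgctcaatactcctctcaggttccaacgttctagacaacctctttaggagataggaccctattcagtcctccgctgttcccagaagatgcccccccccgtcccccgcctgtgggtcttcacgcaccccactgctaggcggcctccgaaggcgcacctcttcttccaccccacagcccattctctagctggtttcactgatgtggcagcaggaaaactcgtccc
Psmd13 and Psmb8 hold none of these letter patterns in the window, Psmc1 holds 1 CCAAT, Psmb5 holds 1 TGACNNNGC and Psmd4 holds 3 CCAAT and 1 interferon core. The Psmd13 and Psmb8 windows lie wholly inside the annotated gene spans, which start at 140881968 and 34197721. Bases before those starts were not searched. Over the 30 members with a promoter entry, CCAAT was in 11, TGACNNNGC in 4 and the interferon core in 3. Among all 32851 promoter windows the shares were 37.4%, 12.4% and 3.44%. CCAAT was in 4 of 14 regulatory particle, 1 of 5 immunoproteasome and PA28, and 6 of 11 core promoters, and TGACNNNGC in 2, 0 and 2. The interferon core was in Psmd4, Psme1 and Psmb3. A match is a description of letters and not a sign of binding.

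Psmd13 (chromosome 7, 140881968 to 140898643, GRCm38) shares 342 exon bases, 10.1% of its own, with Sirt3, a mitochondrial deacetylase gene on the opposite strand (140863666 to 140882309). Sirt3, looked up after the values of Psmd13 were seen, was at 131, 170.4 and 167 CPM in cluster KO, against 74.9, 72.8 and 59.3 CPM in wildtype (log2 fold change 1.18, SE 0.15, adjusted p = 0.00167). Both genes of this overlapping pair rose by about the same amount, and in libraries without strand the reads of the shared bases cannot be assigned to either gene. Psmc3 and Psmd1 also share exon bases with a neighbour, 8.25% of their own with Slc39a13 for Psmc3 and 3.47% with Htr2b for Psmd1, and Htr2b had at most 28 counts in any library.

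The immunoproteasome genes did not move together. Psmb8, the chymotrypsin-like subunit LMP7, was at 731, 749 and 739 CPM in cluster KO, against 588, 608 and 483 CPM in wildtype (log2 fold change 0.40, SE 0.11, adjusted p = 0.0206). The cluster KO libraries lay close together, above every wildtype library. Psmb9, the subunit LMP2, was at 299, 289 and 264 CPM in cluster KO, against 305, 325.5 and 274 CPM in wildtype (-0.09, SE 0.11, adjusted p = 0.578). Psmb10, the subunit MECL-1, was at 259, 255.5 and 220.1 CPM in cluster KO, against 224, 222.5 and 202 CPM in wildtype (0.18, SE 0.11, adjusted p = 0.254). The libraries of both genes overlapped between the genotypes. The PA28 gene Psme1 was at 623, 573 and 526 CPM in cluster KO, against 619, 624 and 603 CPM in wildtype (-0.10, SE 0.10, adjusted p = 0.473). Psme2 was at 386, 356 and 316 CPM in cluster KO, against 441, 432 and 398 CPM in wildtype (-0.26, SE 0.11, adjusted p = 0.0931), without overlap of the libraries but short of the threshold. The call of Psmb8 was lost without cluster KO 2, without wildtype 2 or without wildtype 3 (largest adjusted p = 0.0847), and with length and GC trends removed, where its log2 fold change was 0.03 (adjusted p = 0.786). Psmb9 (-0.32, adjusted p = 0.0293) and Psme2 (-0.28, adjusted p = 0.0267) passed as lower with these trends removed. With the trends fitted on median lengths over coding transcripts in place of principal ones, Psmb8 passed as higher (0.31, adjusted p = 0.032), Psme2 passed as lower (-0.31, adjusted p = 0.0278) and Psmb9 did not pass (0.0548, adjusted p = 0.696).

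Psmb8 and Psmb9 stand next to each other in the MHC region of chromosome 17, with the peptide transporter gene Tap1 between them. Psmb9 (34181987 to 34187764, minus strand) and Tap1 (34187553 to 34197225, plus strand) start head to head and share 212 exon bases, and Psmb8 (34197721 to 34201454, plus strand) follows. Tap1 fell, at 82.0, 75.2 and 74.2 CPM in cluster KO, against 113, 143 and 132 CPM in wildtype (log2 fold change -0.75, SE 0.13, adjusted p = 0.00393). Along this stretch of the chromosome, the order was thus a gene that did not pass, a gene that fell and a gene that rose. Psmb8 also shares 14.7% of its exon bases with the antisense gene Gm20496, which had 56, 81 and 97 counts in cluster KO and 55, 36 and 39 in wildtype libraries. The PA28 genes also lie close together, on chromosome 14 (Psme1 55578123 to 55581529, Psme2 55587441 to 55591113), with Emc9 (55581516 to 55585302) between them. Emc9, on the strand opposite to Psme1, shares 14 exon bases with it and fell (log2 fold change -0.43, SE 0.14, edgeR adjusted p = 0.0443).

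Markers of B lineage cells, which carry immunoproteasomes, moved with genotype. The summed level of 10 B lineage markers was 2022, 2080.3 and 1964 CPM in cluster KO, against 614, 613 and 655 CPM in wildtype, with 7 of 10 called higher and 0 lower and none of the markers at 0 in all libraries. The 0 for lower markers held at an unadjusted p under 0.05 and with DESeq2. For T and NK cells the sum was 611, 519.96 and 490.2 CPM in cluster KO against 501, 509 and 412 CPM in wildtype, with 2 of 9 tested genes higher. For dendritic cells it was 127, 109 and 136 CPM in cluster KO against 110.3, 105 and 98.5 CPM in wildtype, with 1 of 9 higher. For monocytes and macrophages it was 281, 175 and 169 CPM in cluster KO against 162, 173 and 157 CPM in wildtype, with 1 of 10 higher. Of the other marker lists, 4 of 10 neutrophil and 6 of 10 stem and early progenitor genes were higher, with 1 of the progenitor genes lower, and 5 of 10 erythroid genes were lower. The megakaryocyte list had 1 of 9 genes higher and 3 lower, the mast cell and basophil list 2 of 8 higher and 2 lower, and the stroma and endothelium list 2 of 8 higher. Over all tested genes 15.9% were called higher and 12.1% lower. The part of cell makeup in the proteasome values was not tested.

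Most core genes did not pass the test, and the 3 that did were lower. Psmb5, the constitutive chymotrypsin-like subunit that Psmb8 replaces, had the largest fall of all members. It was at 268, 230.5 and 234 CPM in cluster KO, against 352, 333 and 329 CPM in wildtype (log2 fold change -0.47, SE 0.10, adjusted p = 0.0101). Psmb6, the caspase-like subunit, was at 809, 786 and 730.5 CPM in cluster KO, against 909.7, 897 and 868 CPM in wildtype (-0.20, SE 0.09, adjusted p = 0.116). Psmb7, the trypsin-like subunit, was at 185, 164 and 173 CPM in cluster KO, against 202, 177 and 182 CPM in wildtype (-0.10, SE 0.11, adjusted p = 0.513). Psmb5 and Psmb6 had every cluster KO library below every wildtype library, and Psmb7 overlapped. Psmb7 shares 11.8% of its exon bases with Nek6 on the opposite strand. Nek6 had 441, 511 and 666 counts in cluster KO, against 138, 116 and 184 in wildtype (log2 fold change 1.71, SE 0.25, edgeR adjusted p = 0.00252). The part of this overlap in the Psmb7 values was not tested.

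Of the other beta subunits, which are structural, Psmb1 fell. It was at 644, 599 and 596 CPM in cluster KO, against 769, 729.8 and 722 CPM in wildtype (log2 fold change -0.27, SE 0.09, adjusted p = 0.0474). Psmb4 was at 428, 394 and 384 CPM in cluster KO, against 498, 476 and 457 CPM in wildtype (-0.25, SE 0.10, adjusted p = 0.0823). Neither gene's libraries overlapped. Psmb2 was at 808, 783 and 739.6 CPM in cluster KO, against 863, 807 and 801 CPM in wildtype (-0.08, SE 0.09, adjusted p = 0.513), and Psmb3 differed by -0.04 on the log2 scale (SE 0.10, adjusted p = 0.812). Both overlapped.

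In the alpha ring, the gated outer ring of the core, 1 of 7 genes fell. Psma2 was at 960.2, 869.5 and 836 CPM in cluster KO, against 1116, 1116 and 1166 CPM in wildtype (log2 fold change -0.35, SE 0.09, adjusted p = 0.0186). Psma7 was at 866.5, 812 and 804 CPM in cluster KO, against 962, 1025 and 954 CPM in wildtype (-0.25, SE 0.09, adjusted p = 0.0618), also without overlap. Psma1 was at 781, 833 and 862 CPM in cluster KO, against 798, 706 and 643 CPM in wildtype (0.21, SE 0.10, adjusted p = 0.17), with overlap. The fall of Psma2 passed and that of Psma7 did not, although neither gene's libraries overlapped. Psma3, Psma4, Psma5 and Psma6 had log2 fold changes from -0.14 (Psma3) to 0.11 (Psma4) and adjusted p from 0.233 to 0.713. In all, 7 of the 14 core genes had every cluster KO library below every wildtype library, where 23.1% of all tested genes did. Leaving out 1 library changed the number of core genes called lower to between 0, without cluster KO 2, and 5, without cluster KO 1, and it was 1 without each of the wildtype libraries.

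The balance of immunoproteasome to constitutive catalytic subunits was read within each library, so that a scaling factor of the whole library cancels. Levels of different genes were compared per kilobase of principal transcript. The log2 ratio of Psmb8 to Psmb5 was 0.59, 0.84 and 0.80 in cluster KO and -0.12, 0.01 and -0.30 in wildtype libraries, a difference of 0.88 (exact permutation test, two-sided p = 0.1, adjusted p = 0.15 over the 3 ratios). The cluster KO libraries all lay above the wildtype ones, with a mean ratio of 1.68 in cluster KO and 0.91 in wildtype. The log2 ratio of Psmb10 to Psmb7 was 0.31, 0.46 and 0.17 in cluster KO and -0.02, 0.15 and -0.02 in wildtype libraries, a difference of 0.28 (exact permutation p = 0.1, adjusted p = 0.15). The log2 ratio of Psmb9 to Psmb6 was -2.20, -2.21 and -2.23 in cluster KO and -2.34, -2.22 and -2.42 in wildtype libraries, a difference of 0.12 (exact permutation p = 0.2, adjusted p = 0.2). The Psmb10 to Psmb7 ratios did not overlap between the genotypes, while cluster KO 3 lay just below wildtype 2 in the Psmb9 to Psmb6 ratio. With 3 libraries of each genotype 0.1 is the smallest p this test can give. With median lengths over coding transcripts in place of principal ones, the mean Psmb8 to Psmb5 ratio was 2.75 in cluster KO and 1.49 in wildtype, so the level of the ratio depends on the length used. With each library's length and GC trends removed from both genes, the Psmb8 to Psmb5 difference was 0.45, still without overlap (exact permutation p = 0.1), and it was 0.82 with trends fitted on median lengths (exact permutation p = 0.1). The Psmb9 to Psmb6 difference changed sign to -0.22 with trends on principal lengths and was 0.32 with those on median lengths (exact permutation p = 0.1 for each), so no direction can be given for it. The Psmb10 to Psmb7 difference was 0.14 on principal and 0.12 on median lengths, with overlapping libraries (exact permutation p = 0.3 for each).

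**Figure D4:**
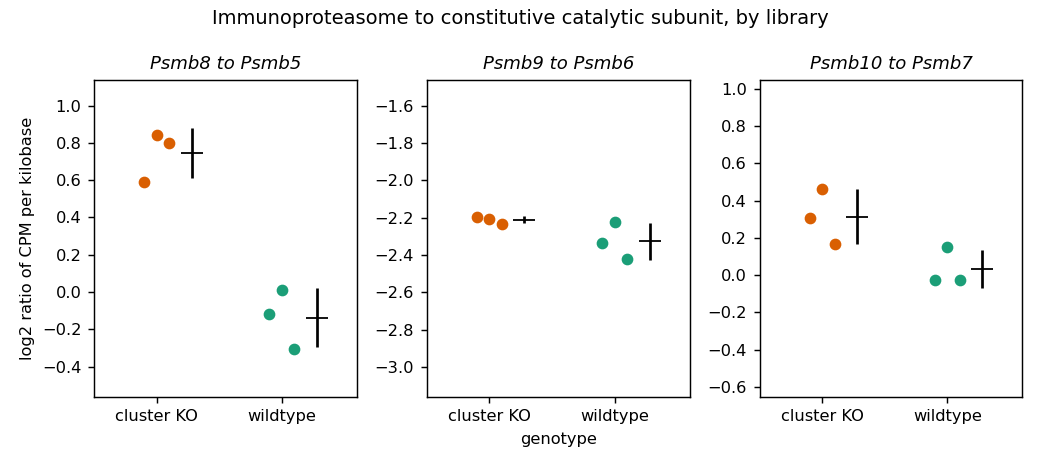
Log2 ratio of CPM per kilobase of each immunoproteasome catalytic subunit to the constitutive subunit it replaces, in each library (points), with mean and SD over 3 libraries (bars); the panels have different ranges of equal span. The 3 cluster KO libraries lie above the 3 wildtype libraries for Psmb8 to Psmb5, at 0.59 to 0.84 against -0.30 to 0.01.

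Per kilobase of principal transcript, the most abundant member was a core gene and the least abundant a regulatory particle gene in both genotypes. Core levels ran from 150.1 (Psmb7) to 971 (Psmb6) CPM per kilobase in cluster KO and from 161 to 1117 in wildtype, with medians of 353 in cluster KO and 412 in wildtype. Immunoproteasome and PA28 levels ran from 187 (Psmb10) to 516 (Psme1) CPM per kilobase in cluster KO and from 165 to 553 in wildtype, with medians of 367 in cluster KO and 344 in wildtype. Regulatory particle levels ran from 33.9 (Psmd13) to 299 (Psmd14) CPM per kilobase in cluster KO and from 15.2 to 247 in wildtype, with medians of 217 in cluster KO and 129 in wildtype. The gap between the core and the particle in these medians was thus smaller in cluster KO. These levels keep the trends with transcript length and GC content. With those trends removed, the median log2 fold change of the particle's genes was 0.26, against 0.50 before, and that of the core genes -0.16, against -0.12. With the trends fitted on median lengths over coding transcripts these medians were 0.23 for the particle and -0.30 for the core. The summed CPM of the particle's genes was 4379, 5093 and 5848 in cluster KO against 3987, 3760.5 and 3180 in wildtype, and that of the core genes was 8583, 8241 and 8110 in cluster KO against 9524, 9163 and 8907 in wildtype.

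Other genes that build or serve the proteasome, taken from lists by role, moved in both directions. Over all tested genes 15.9% were called higher and 12.1% lower, and the list counts here and below stand beside those shares. Among 7 further subunits and alternative activators 2 rose and 2 fell. Sem1, a small 19S subunit, was lower (-0.84, SE 0.16, adjusted p = 0.00529), unlike the particle's listed members, and Adrm1, a ubiquitin receptor of the particle, was higher (0.54, SE 0.17, adjusted p = 0.0363). The alternative activator gene Psme4 fell (-0.51, SE 0.13, adjusted p = 0.0165) and the inhibitor gene Psmf1 rose (0.58, SE 0.15, adjusted p = 0.0189). Of 8 assembly factors 1 rose and 2 fell. Psmd5, a chaperone of 19S assembly, rose (0.85, SE 0.22, adjusted p = 0.0181), while Pomp (-0.40, SE 0.11, adjusted p = 0.0201) and Psmg4 (-0.75, SE 0.14, adjusted p = 0.00547), chaperones of core assembly, fell.

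Among proteasome-bound deubiquitinases, ligases and shuttles 2 of 11 rose and 4 fell. Rad23b, a shuttle that carries ubiquitinated proteins to the 19S particle, fell (-1.04, SE 0.15, adjusted p = 0.00248). Of the ubiquitin genes, E1 enzymes and p97 genes 2 of 9 rose and 3 fell. The polyubiquitin gene Ubb was higher (0.81, SE 0.14, adjusted p = 0.00354), and Rps27a, which encodes ubiquitin fused to a ribosomal protein, was lower (-1.01, SE 0.15, adjusted p = 0.00265). Of 10 regulators of proteasome genes 2 rose and 1 fell, the NF-Y subunits Nfyc (0.97, SE 0.21, adjusted p = 0.00823) and Nfyb (0.44, SE 0.14, adjusted p = 0.039) upward and Nfya (-0.57, SE 0.17, adjusted p = 0.0289) downward.

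Genes of antigen supply moved in both directions, and the interferon genes that passed were higher. Of 10 genes of class I peptide supply and loading 3 rose and 4 fell, with Pdia3 at 1.27 (SE 0.22, adjusted p = 0.00396) and Nlrc5, the transactivator of class I genes, at -0.72 (SE 0.15, adjusted p = 0.00824). Of 10 tested interferon-gamma signalling and IRF genes 7 rose and 0 fell, with a median log2 fold change of 0.73. They included the receptor genes Ifngr1 (0.82, SE 0.16, adjusted p = 0.00581) and Ifngr2 (0.81, SE 0.16, adjusted p = 0.00624). Of 20 interferon-stimulated genes 7 rose and 0 fell, with a median of 0.33. In both lists edgeR gave 0 lower genes at an unadjusted p under 0.05 as well, and DESeq2 called 0 lower. Called genes of the 2 interferon lists ran from 1885 (Oas1a) to 3708 (Ifngr2) nucleotides. Over all tested genes 15.9% were called higher, and 35.1, 21.9, 16.2 and 10.8% in the length deciles from 1855 to 3779 nucleotides. Over all 8 pathway lists together, 12 genes were higher with length and GC trends removed, against 26 in the main comparison. With the trends fitted on median lengths over coding transcripts 22 were higher, so this count depends on the length used.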

How the data were processed

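Gene counts were deposited by the authors as 1 table of whole-number counts for 6 libraries, with Ensembl gene IDs. Per the labels' protocols, RNA was taken from bone marrow and made into poly(A) libraries with a non-stranded Clontech and Nextera XT kit, and the 6 samples were sequenced as 1 pool. Per the submitters' processing notes, bcl2fastq, TopHat2, HTSeq and the build mm10 were used. The sources used here do not give their versions, the counting mode or the annotation release. HTSeq sets aside reads with several alignments or several genes in its usual modes, so genes with near copies or overlapping exons can be undercounted.

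From the counts, the 5 summary rows (no feature, multiple alignments and the like) did not enter library sizes or tests. Reads outside genes made up 7.29 to 11.1% of each library. Of 47729 gene IDs 47310 were matched to symbols in GENCODE M21 (GRCm38), and all 36 members were found. Genes with low counts were dropped (filterByExpr, minimum count 10), leaving 15686. Cluster KO was compared with wildtype by edgeR 4.0.16 (TMM factors, robust quasi-likelihood F-test, Benjamini-Hochberg adjustment over the 15686 genes, threshold 0.05) in R 4.3.3, tested first on simulated data. The standard error was taken as the log2 fold change over the square root of F. Lengths are those of the APPRIS principal transcript. Length and GC trends were removed per library with splines of 5 degrees of freedom each. DESeq2 1.42.0, other scalings, no filter, a replicate block and leaving out each library were tried as well. Ratios of catalytic subunits were compared by exact permutation. At 17663369 to 23459168 counts per library, a count of 0 allows up to 3 counts, or 0.128 to 0.170 CPM, by counting error only.

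The members and the gene lists were chosen with earlier results of these data known. Genes printed with the value in every library are the immunoproteasome, PA28 and replaced catalytic subunits and the 3 with the smallest p in each other subgroup. List genes are named from the up to 4 with the smallest p in each list, by log2 fold change, SE and adjusted p. Some list genes that this rule names are counted but not reported here by name. The values of Psmd1, Psmd2, Sirt3 and Tap1 in every library were added after they were seen. Libraries of 1 genotype differed from each other by more than sampling noise (chi-square per degree of freedom at least 11.3), so none was counted as a repeat.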

Additional observations from a re-analysis of the deposited data

How the results depend on the processing

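Under DESeq2 size factors, upper-quartile factors, library totals alone, no filter beyond 1 count, a fit without the robust option and the DESeq2 Wald test, 11 regulatory particle genes were called higher each time, and 14 or 15 of the 15 member calls were kept. Upper-quartile scaling moved the median of all genes to -0.10, with 5 core genes lower and 0 immunoproteasome and PA28 genes higher. With length and GC trends removed, 4 regulatory particle genes were higher, 6 core genes lower, and 0 immunoproteasome and PA28 genes higher and 2 lower; 12 genes of the other pathway lists were higher, against 26 in the main comparison. With the median length over coding transcripts, an alternative chosen after seeing the data, 5 regulatory particle genes were higher and 8 core genes lower. In that fit 1 immunoproteasome or PA28 gene was higher and 1 lower, and 22 genes of the other pathway lists were higher. Leaving out 1 library gave 3 to 13 regulatory particle genes higher, 0 to 5 core genes lower, 0 to 1 immunoproteasome and PA28 genes higher and 0 to 1 lower. Over all genes it gave 1258 to 3151 higher and 742 to 2579 lower, and in the other pathway lists 10 to 29 higher and 9 to 21 lower. The cause of these changes was not tested.

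Deviations of same-numbered libraries had correlations of -0.198, -0.000354 and -0.171, and those of differently numbered libraries ran from -0.0226 to 0.204. With 3 libraries of each genotype these values cannot show whether the replicate numbers mark libraries handled together. With a replicate block, 3 regulatory particle genes were higher (2 with length and GC trends removed as well), 0 core genes lower (3 with the trends removed) and 0 immunoproteasome and PA28 genes higher (0 with the trends removed). The block gave 1331 genes higher and 865 lower overall (776 and 994 with the trends removed), and 12 higher and 10 lower in the other pathway lists (5 and 10 with the trends removed).

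Some members changed sign without passing on either side. With length and GC trends removed, these were Psmb3 (0.0796), Psmb10 (-0.0158), Psmd3 (-0.24) and Psmd12 (-0.13), and with the replicate block added Psmb10 was at -0.0188 and the other 3 at the same values. With median lengths they were Psmb9 (0.0548), Psmb10 (-0.20), Psmd3 (-0.19), Psmd7 (-0.0299), Psmd12 (-0.0022) and Psmd14 (-0.0547). Without wildtype 1 they were Psma5 and Psmb3, whose ranges over the left-out libraries were -0.0938 to 0.00841 and -0.10 to 0.0153. The Psmb8 to Psmb5 difference stayed between 0.798 and 0.958 when 1 library was left out, but was 0.45 with length and GC trends removed and 0.82 with trends on median lengths. The Psmb9 to Psmb6 difference was -0.22 and 0.32 in those fits, against 0.12 without them, and the Psmb10 to Psmb7 difference 0.14 and 0.12, against 0.28. These trend-adjusted ratios were chosen after seeing the data. In this design Psmb1, at -0.27, was the smallest change of a member that the test called.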
